A study of Mus musculus with 18 samples.

Results

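The genes described here are H2-Aa, H2-Ab1 and H2-Eb1, which encode chains of the classical mouse MHC class II molecules, and Cd74, which encodes the invariant chain. They were chosen by gene family, as every row of the 6 deposited gene lists whose symbol is one of these 4. Their symbols are 4 of the 816 distinct symbols in the lists, and they fill 11 of the 1023 rows. The lists compare bone marrow-derived macrophages, primary cells grown from mouse marrow in medium conditioned by L929 cells, between 2 genotypes in 3 states. EED KO cells came from mice with loxP-flanked Eed alleles (Eedfl/fl) and 1 copy of LysM-Cre, a recombinase driven by the lysozyme 2 gene of myeloid cells, and WT cells came from littermate controls whose alleles are not given further. Each genotype had 3 libraries that were unstimulated, 3 that were LPS primed (100 ng/ml of Salmonella lipopolysaccharide for 24 h) and 3 that were LPS tolerant (primed, rested for 48 h and then given 10 ng/ml). The labels give neither the age of the mice nor how long the second exposure lasted.

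MHC class II molecules are pairs of an alpha and a beta chain that carry peptides from engulfed proteins to the cell surface, where CD4+ T cells read them. H2-Aa and H2-Ab1 encode the alpha and beta chain of the A molecule, and H2-Eb1 encodes the beta chain of the E molecule. The invariant chain holds new class II molecules together, blocks their groove and steers them to the endosome, where proteases cut it away and the H2-DM molecule exchanges its last fragment for a peptide. The genes are transcribed together under the coactivator CIITA, which interferon-gamma induces in macrophages. EED is the subunit of Polycomb repressive complex 2 that binds methylated lysine 27 of histone H3, and the complex keeps target genes silent by placing that mark.

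All values are those of the authors: a log fold change of EED KO over WT, an unadjusted p and an adjusted p for each listed gene. They hold no level per library, so neither the spread of single libraries nor the depth behind a value can be given, and more class II-bearing cells cannot be told apart from more class II RNA per cell. The base of the logarithm is not stated and was taken as 2. An approximate standard error was computed as the log2 value over the normal quantile that matches its p. Rose and fell are used only where the deposited adjusted p was under 0.05. Eed checks the direction and the labels: the authors' deposited table gives it -3.04 in unstimulated, -3.59 in LPS primed and -3.87 in LPS tolerant cells.

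The promoters of the class II genes are built alike, with an X box and a Y box at a conserved spacing, which is why the available ones are shown here. The RefSeq promoter table on build GRCm38.p6 holds windows for 2 of the 4 genes, H2-Aa and H2-Eb1, each running from 250 bases before the gene's start to 50 bases after it. The submitters name a newer build, GRCm39, so these coordinates apply to the sequences alone. Capitals mark GCAACT (X box core), TGACGTCA (a cAMP response element, the X2 part of the box) and CTGATTGG (Y box core), searched on both strands.
H2-Aa, chr17:34287774-34288073, minus strand: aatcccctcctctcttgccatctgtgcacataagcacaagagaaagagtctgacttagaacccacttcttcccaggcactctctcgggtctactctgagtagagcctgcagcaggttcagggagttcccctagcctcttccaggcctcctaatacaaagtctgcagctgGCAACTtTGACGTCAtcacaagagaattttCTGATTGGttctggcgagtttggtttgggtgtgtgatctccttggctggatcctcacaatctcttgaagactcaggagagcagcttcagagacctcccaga
H2-Eb1, chr17:34305617-34305916, plus strand: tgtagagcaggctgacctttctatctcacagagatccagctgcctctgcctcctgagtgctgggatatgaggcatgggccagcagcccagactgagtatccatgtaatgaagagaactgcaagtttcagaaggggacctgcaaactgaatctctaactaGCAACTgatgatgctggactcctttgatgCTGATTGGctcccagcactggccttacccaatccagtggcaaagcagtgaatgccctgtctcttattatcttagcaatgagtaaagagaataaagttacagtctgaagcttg

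The X and Y cores stood in the same order and strand in both windows, 24 bases apart in H2-Aa and 23 bases apart in H2-Eb1. CTGATTGG began 51 bases before the start of H2-Aa and 62 bases before that of H2-Eb1. Of 32817 promoter windows of this length, 4.09% held CTGATTGG, 10.9% held GCAACT and 1.79% held TGACGTCA. GCAACT followed within 40 bases by CTGATTGG was found in 10 windows, or 0.0305%. Besides H2-Aa and H2-Eb1, those 10 included H2-Eb2, another class II beta chain gene, which is on none of the 6 lists. The letters of the X core were chosen with the H2-Aa and H2-Eb1 windows in view, so the rarity of the pair is a description and not a test.

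In unstimulated macrophages all 4 genes were listed as higher in EED KO cells, and the 3 class II chains rose. H2-Eb1 rose by 1.69 on the log2 scale, or 3.22-fold, per the authors' deposited table (approximate SE 0.32, adjusted p = 0.000563). H2-Ab1 was almost level with it, at 1.63 or 3.10-fold (approximate SE 0.31, adjusted p = 0.000544), per the authors' deposited table. For H2-Aa, the partner of H2-Ab1, the authors' deposited table gives 1.51 or 2.84-fold (approximate SE 0.35, adjusted p = 0.038). The 3 chains thus lay within less than 1 approximate SE of each other. Cd74 stood lower, at 1.10 or 2.15-fold, with an approximate SE of 0.47 and an adjusted p of 1 per the authors' deposited table.

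The 3 chains that rose compare with 38 of all 227 listed genes in unstimulated cells, or 16.7%, that were higher at an adjusted p under 0.05. Ordered by p, H2-Ab1 and H2-Eb1 took ranks 21 and 22 of the 227, H2-Aa rank 41 and Cd74 rank 203. By size, H2-Eb1, H2-Ab1, H2-Aa and Cd74 took ranks 32, 36, 46 and 90 among the 174 higher genes. The median of the 4 was 1.57, against 1.11 for all higher listed genes. The adjusted p-values imply far more tests than there are genes, 413233 in unstimulated cells, of which at least 271 (0.0656%) passed an adjusted p of 0.05. A deposited row may therefore describe a part of a gene, such as an exon or transcript, and the part measured for a gene need not be the same in each state.

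**Figure D1:**
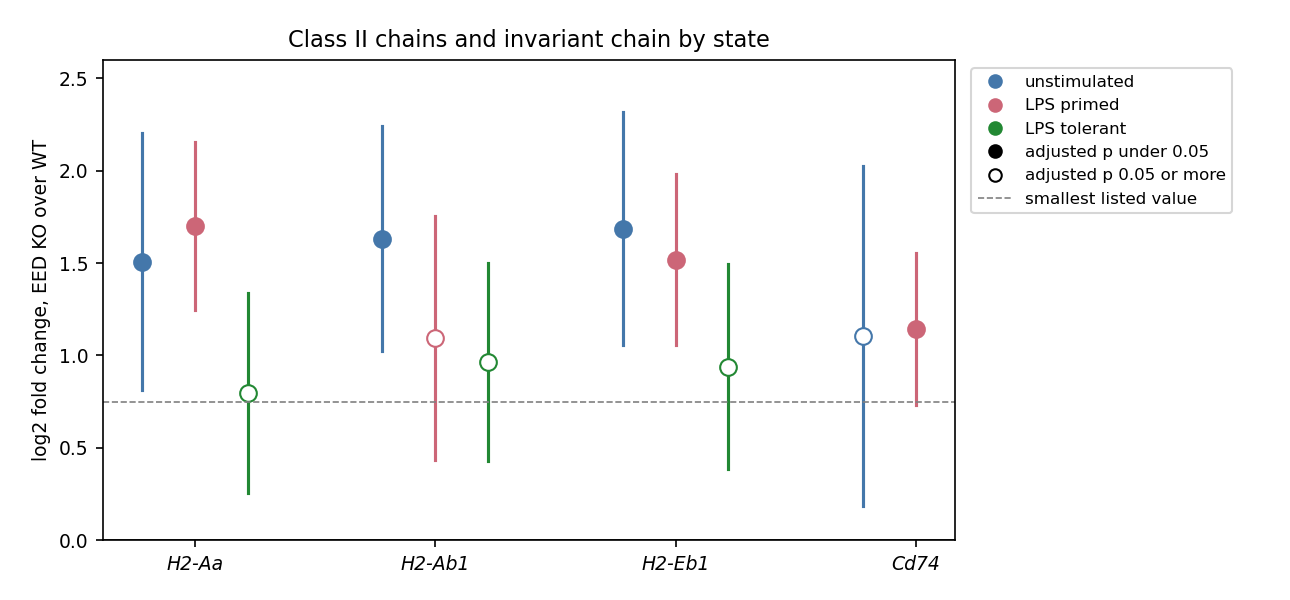
Log2 fold change of EED KO over WT (vertical axis) for each gene (horizontal axis) in each of the 3 states; lines are approximate 95% intervals from the deposited p, filled points passed an adjusted p of 0.05 and the dashed line is the smallest listed size. The LPS tolerant point is the lowest of each class II chain, from 0.80 to 0.96, and Cd74 has no LPS tolerant point.

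In LPS primed macrophages the 4 genes were again all listed as higher in EED KO cells, and a different set of 3 passed: H2-Aa, H2-Eb1 and Cd74. H2-Aa rose by 1.70, or 3.25-fold, per the authors' deposited table (approximate SE 0.23, adjusted p = 5.93e-10). H2-Eb1 rose by 1.52, or 2.87-fold, per the authors' deposited table (approximate SE 0.24, adjusted p = 1.46e-07). Cd74 rose by 1.14, or 2.21-fold (approximate SE 0.21, adjusted p = 3.98e-05), per the authors' deposited table. Its size was close to the 1.10 of unstimulated cells, and its approximate SE was 0.21 in LPS primed against 0.47 in unstimulated cells. H2-Ab1 stood at 1.09 or 2.13-fold, with an approximate SE of 0.34 and an adjusted p of 0.189 per the authors' deposited table. The partner chains of the A molecule were therefore further apart in LPS primed than in unstimulated cells, a gap that was not tested because both come from the same libraries.

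Those 3 are among the 104 of 377 listed genes in LPS primed cells, or 27.6%, that were higher at an adjusted p under 0.05. H2-Aa took rank 13 by p, H2-Eb1 rank 27, Cd74 rank 42 and H2-Ab1 rank 199 of the 377. In size they were less extreme, with ranks 51, 71, 135 and 149 among 301 higher genes. Their median was 1.33, against 1.09 for all higher listed genes in LPS primed cells. Of the implied 379717 tests, at least 1109 (0.292%) passed an adjusted p of 0.05. For 1 of the 3 WT libraries of this state, the labels lack the entry tying a library to its comparison, so whether it entered these values is unknown.

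In LPS tolerant macrophages the 3 class II chains were listed as higher in EED KO cells, none of them past the adjusted threshold, and Cd74 was listed in neither direction. H2-Ab1 stood at 0.96 or 1.95-fold, with an approximate SE of 0.27 and an adjusted p of 0.122 per the authors' deposited table. H2-Eb1 stood at 0.94 or 1.92-fold (approximate SE 0.28, adjusted p = 0.227) per the authors' deposited table. H2-Aa had 0.80 or 1.74-fold (approximate SE 0.28, adjusted p = 0.521) per the authors' deposited table, close to the smallest size that the lists hold, 0.75. A gene below that size is not on a list, so the absence of Cd74 does not give its value.

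That 0 of the 3 listed chains passed compares with 89 of the 419 listed rows in LPS tolerant cells, or 21.2%, that were higher at an adjusted p under 0.05. At an unadjusted p under 0.05, all 3 listed chains passed, as every listed row does. Ranks by p were 126 for H2-Ab1, 152 for H2-Eb1 and 227 for H2-Aa of the 419. By size they took ranks 152, 165 and 286 among 344 higher rows, and their median of 0.94 was near that of all higher rows, 0.92. At least 837 (0.247%) of the implied 338297 tests passed an adjusted p of 0.05. The approximate SEs of the 3 chains were 0.31 to 0.35 in unstimulated, 0.23 to 0.34 in LPS primed and 0.27 to 0.28 in LPS tolerant cells.

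**Figure D2:**
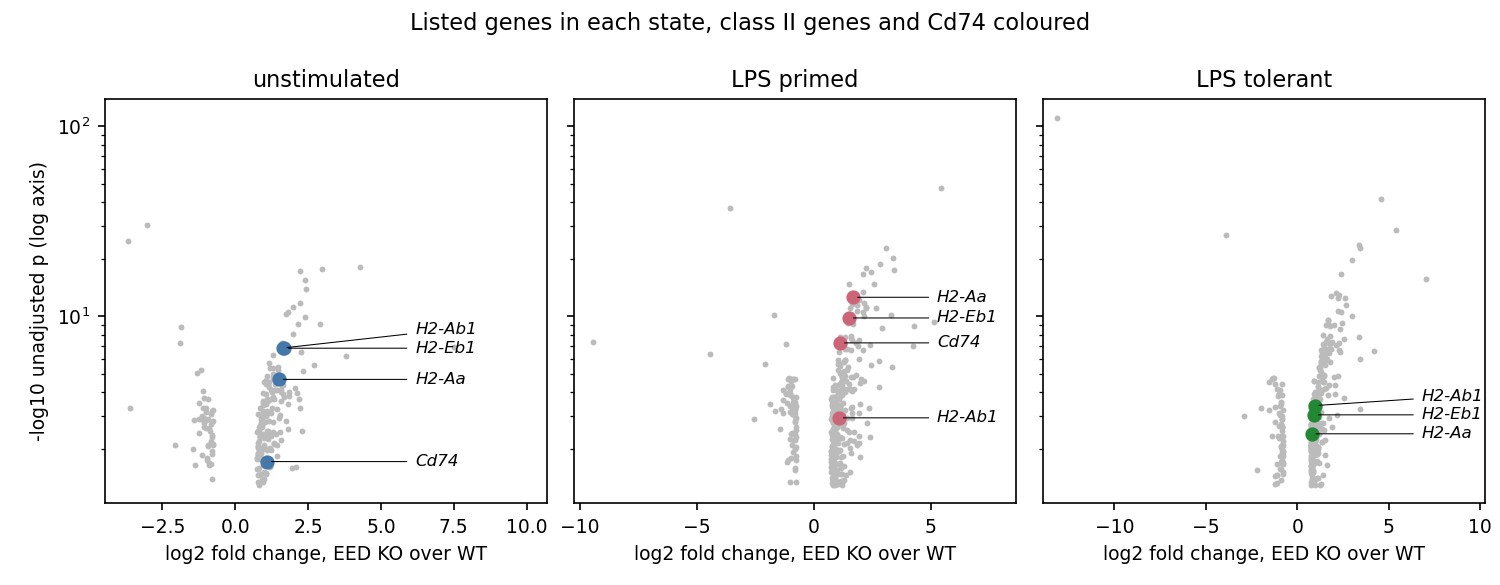
Every listed gene as a grey point, with a panel for each state, by log2 fold change of EED KO over WT (horizontal axis) and -log10 of the unadjusted p (vertical log axis), with the class II chains and Cd74 coloured and named. In the order of the panels, H2-Aa has ranks 41, 13 and 227 by p, and H2-Ab1 has ranks 21, 199 and 126.

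Whether the fold changes differed between states was tested from the deposited values, for the 10 pairs of values that 2 lists share. Only values of at least 0.75 in size and with an unadjusted p under 0.05 in both states could enter. A gene that left a list, such as Cd74 in LPS tolerant cells, could not be tested. The shares of genes passing are limited in the same way. The test was a two-sided normal test on the approximate SEs, with Benjamini-Hochberg adjustment over all genes listed once in both states. It treats the states as independent, although replicate numbers recur across them and cells of 1 mouse may have served in several. None of the 10 passed an adjusted p of 0.05, and 1 passed at an unadjusted p under 0.05. That was H2-Aa, at 0.80 in LPS tolerant against 1.70 in LPS primed cells, a difference of -0.91 with a 95% interval from -1.61 to -0.20 (normal test on the authors' deposited table, p = 0.012, adjusted p = 0.121). In the same pair of states, 8 of 111 genes (7.21%) passed the adjusted threshold. H2-Eb1 differed by -0.58 between LPS tolerant and LPS primed cells (95% interval -1.30 to 0.14) and H2-Ab1 by -0.13 (95% interval -0.98 to 0.72).

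Against unstimulated cells, the LPS tolerant values were lower by similar amounts in the 3 chains. The differences were -0.71 for H2-Aa (95% interval -1.59 to 0.17), -0.67 for H2-Ab1 (95% interval -1.48 to 0.14) and -0.75 for H2-Eb1 (95% interval -1.59 to 0.09). Their adjusted p-values by the normal test were 0.438, 0.438 and 0.359, and 3 of 58 genes (5.17%) passed in that pair of states. LPS primed and unstimulated values differed by 0.19 for H2-Aa (95% interval -0.64 to 1.03) and by 0.04 for Cd74 (95% interval -0.97 to 1.05). For H2-Ab1 that difference was -0.54 (95% interval -1.44 to 0.36) and for H2-Eb1 -0.17 (95% interval -0.95 to 0.62), with 6 of 73 genes (8.22%) passing. These intervals leave room for no change and for a loss of more than 1 log2 unit in each chain between LPS tolerant and unstimulated cells.

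The outcome depends on the shape assumed for the authors' test statistic, which is not given in the sources used here. With standard errors from a t distribution with 4 degrees of freedom, the intervals shrank and 7 of the 10 differences passed an adjusted p of 0.05. Under that assumption the 3 LPS tolerant chains were below their unstimulated values with adjusted p of 0.00368 for H2-Aa, 0.000304 for H2-Ab1 and 0.000405 for H2-Eb1. However, 29 of the 58 genes shared by those states then passed as well. It also gave H2-Aa in LPS primed cells an SE of 0.000763, against 0.23 from the normal quantile. The 7 calls are therefore not read as differences between states.

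**Figure D3:**
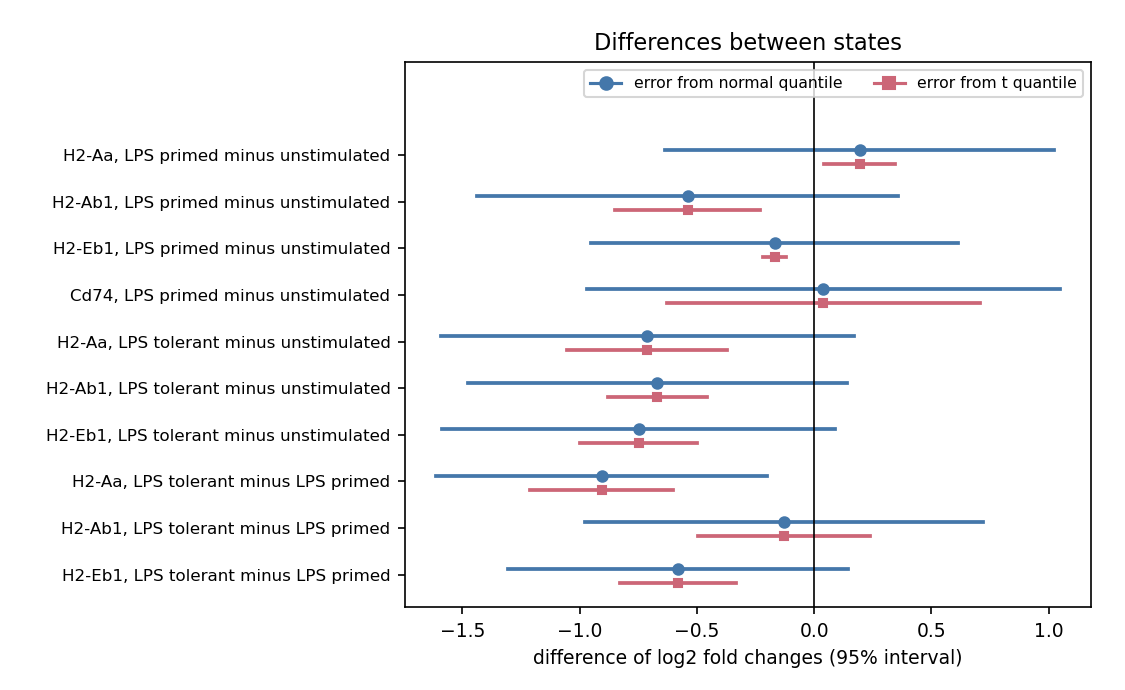
Difference between the log2 fold changes of 2 states (horizontal axis) for each gene and pair of states (rows), with 95% intervals from normal (blue circles) or t quantiles (red squares). With normal quantiles the interval leaves out 0 for H2-Aa between LPS tolerant and LPS primed cells, and the other 9 include 0.

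H2-Aa, H2-Ab1 and H2-Eb1 were 3 of the 39 genes listed once in each of the 3 states, 30 of which were higher in all 3. In 15 of those 30, the 3 chains among them, the LPS tolerant value was the smallest. The median over the 30, which also includes the 3 chains, was 1.57 in unstimulated, 1.59 in LPS primed and 1.20 in LPS tolerant cells. The mean of the 3 chains was 1.61, 1.44 and 0.90 in the same order of states. Nearest to that mean profile was Igf1r, the receptor for insulin-like growth factor 1, at 1.29, 1.21 and 1.11 per the authors' deposited table, a Euclidean distance of 0.44 over 3 states. Next came Kctd17 (distance 0.63), Rragd, a Rag GTPase of the lysosomal nutrient-sensing pathway (0.69), the kinase gene Cdc42bpa (0.72) and Rims3 (0.74). Each of these had an LPS tolerant value above 1.1 per the authors' deposited table, higher than those of the 3 chains. H2-Eb1 itself lay at 0.12 from the mean, H2-Aa at 0.30 and H2-Ab1 at 0.35. The mean is made of these 3 chains, so their own distances are small by construction and cannot be set against those of other genes.

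Across 7 lists of 40 symbols, covering peptide loading, transcription, lysosomal proteases, turnover, co-stimulation, interferon-gamma signalling and the remaining class II chains, 1 symbol was listed in unstimulated, 1 in LPS primed and 3 in LPS tolerant cells. These are 2.5%, 2.5% and 7.5% of the symbols, beside 0.995%, 1.56% and 1.76% of the 21900 protein-coding genes of the RefSeq annotation, in the same order of states. Of the 40 symbols, 36 are among those protein-coding genes, so the shares do not have quite the same base. None of the 8 transcription genes was listed in any state, Ciita and the RFX and NF-Y subunits among them. H2-DMa and H2-DMb1, the chains of the peptide exchange molecule H2-DM, were listed in LPS tolerant cells at 0.81 each (adjusted p of 0.555 and 0.574) per the authors' deposited table. Both were higher, as were 344 of the 419 listed rows in that state. Their size was near the smallest that the lists hold, 0.75, and neither passed.

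Ctsl, a lysosomal protease able to cut the invariant chain, went the other way. It fell by 0.85 on the log2 scale in LPS tolerant cells per the authors' deposited table (adjusted p = 0.0181), and stood at -0.81 in unstimulated cells (adjusted p = 0.405). Ctss, the main protease of invariant chain removal in antigen-presenting cells, was not listed, nor were Ctsb, Ctsd, Lgmn or Ifi30. Of 8 interferon-gamma signalling genes, Jak2, the kinase of its receptor, was listed at 0.81 in LPS primed cells (adjusted p = 0.637) per the authors' deposited table. None of the 6 co-stimulation genes was listed, including Cd80, Cd86 and Cd40.

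**Figure D4:**
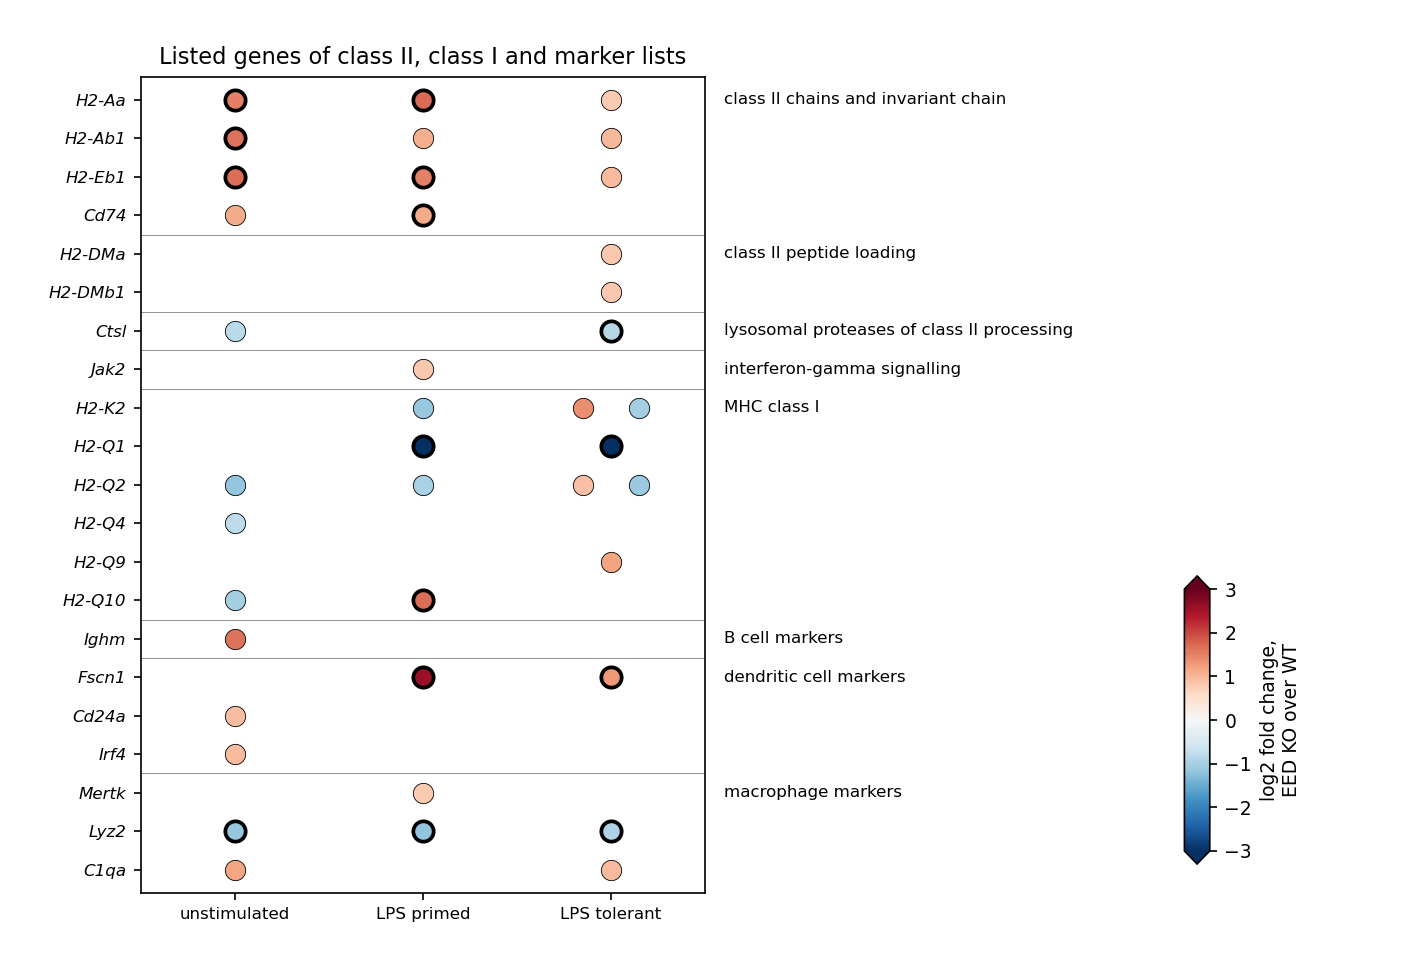
Listed genes of the class II, class I and marker lists (rows) in the 3 states (columns), coloured by log2 fold change of EED KO over WT with colours ending at -3 and 3; thick outlines mark an adjusted p under 0.05, blank cells are genes not listed, and paired points are symbols listed in both directions. The class II chains form the block of higher genes at the top, and class I genes point both ways.

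MHC class I genes, whose products show peptides from inside the cell, did not share one direction. Of 25 symbols, 3 were listed in unstimulated, 4 in LPS primed and 4 in LPS tolerant cells. Of all protein-coding genes, 0.995%, 1.56% and 1.76% were listed in the same order of states. In unstimulated cells all 3 were lower, as were 53 of all 227 listed genes, and none of the 3 passed. In LPS primed cells 1 was higher and 3 were lower, and in LPS tolerant cells 3 rows were higher and 3 lower. In LPS primed cells H2-Q10 rose by 1.67 (adjusted p = 0.00723) and H2-Q1 fell by 9.45 on the log2 scale (adjusted p = 3.72e-05) per the authors' deposited table. H2-Q1 fell by 13.12 on the log2 scale in LPS tolerant cells per the authors' deposited table (adjusted p = 4.06e-106). H2-K2 and H2-Q2 were listed in LPS tolerant cells both as higher and as lower, at 1.39 and -1.02 for H2-K2 and at 0.90 and -1.11 for H2-Q2 per the authors' deposited table. The higher and the lower row of each symbol carry the same Ensembl gene identifier, so these rows cannot each stand for the whole gene. Reads can also be placed wrongly among the H2-Q and H2-K genes, which are almost copies of each other, so their values are uncertain. H2-Aa, H2-Ab1 and H2-Eb1 lie in the same complex on chromosome 17 and also vary between strains. The part of such differences in the class II values was not tested.

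Other cells of bone marrow cultures, B cells and dendritic cells, carry class II at high levels. Of all protein-coding genes, 0.995% were listed in unstimulated, 1.56% in LPS primed and 1.76% in LPS tolerant cells, so an unlisted marker is the usual case. Of 10 B cell markers, Ighm, the immunoglobulin mu heavy chain, was listed in unstimulated cells at 1.63 (adjusted p = 0.132) per the authors' deposited table, and Cd79a, Cd79b, Ms4a1 and Pax5 were listed in no state. Of 13 dendritic cell markers, Cd24a at 0.93 and Irf4 at 0.95 were listed in unstimulated cells (adjusted p of 0.573 and 1) per the authors' deposited table. Fscn1, which bundles actin in mature dendritic cells, rose by 2.58 in LPS primed (adjusted p = 8.49e-12) and by 1.30 in LPS tolerant cells (adjusted p = 0.00149) per the authors' deposited table. Flt3, Zbtb46, Itgax, Xcr1, Clec9a and Ccr7 were listed in no state. The lists give changes and not levels, so how many such cells the cultures held, and their part in the class II values, was not tested.

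Among 12 macrophage markers, Lyz2, the gene that carries the Cre insertion, fell in each state, by 1.17 in unstimulated, 1.19 in LPS primed and 0.93 in LPS tolerant cells on the log2 scale, per the authors' deposited table. C1qa, a complement component, stood at 1.19 in unstimulated (adjusted p = 1) and 0.96 in LPS tolerant cells (adjusted p = 0.698) per the authors' deposited table. Mertk, a receptor for dying cells, stood at 0.79 in LPS primed cells (adjusted p = 0.374) per the authors' deposited table. Adgre1, Csf1r, Cd68 and Itgam were listed in no state. In each state 2 of the 12 were listed, beside 0.995%, 1.56% and 1.76% of protein-coding genes in the same order of states. Without levels per library, the labelled cell type could not be checked against these markers.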

How the data were processed

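RNA-seq libraries of EED KO and WT macrophages were compared by the authors within each state, with 3 libraries per group and 18 in all. Per the labels' protocols, libraries were stranded and made from mRNA. HISAT2, edgeR, R 4.0.3 and GRCm39 are named in the submitters' processing notes, while their roles, the annotation, the filters and the test were not stated there. In each list the authors deposited a log fold change (read as log2) and an unadjusted and an adjusted p-value per listed gene. Listed rows have an absolute log2 value of at least 0.75 and a p-value under 0.05, as the deposited values show. No values per library were used, so no model was fitted, depth is unknown and nothing says whether replicates were separate mice. If they were not, the p-values measure a spread that may be technical.

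Here the deposited values were copied for the genes named, approximate SEs were derived from them, and differences between states were tested (Python 3.11.15, scipy 1.17.1). The number of tests is the smallest whole number for which at least 50% of full-precision rows had ranks whole to within 1e-06 of the rank. It fitted 69.4%, 62.2% and 60.6% of such rows in the order of the states. The genes, gene lists and tests were chosen with earlier results of these data known. Named genes are the 4 genes, listed genes of the class II, class I and marker lists, the 5 nearest profiles, listed genes within 1 Mb of the 4, and checks such as Eed; H2-Eb2 and unlisted genes were named after the values were seen. Alternatives were other thresholds, t quantiles and another logarithm base.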

Additional observations from a re-analysis of the deposited data

How the results depend on the processing

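No paired analysis was possible because the deposited columns hold comparisons and no libraries; for the same reason no replicate could be left out in turn. The 3 calls in LPS primed cells and their number held at an adjusted p under 0.01 or 0.1, at an unadjusted p under 0.001 and under a Bonferroni correction over the implied tests. In unstimulated cells the count of 3 was 2 at an adjusted p under 0.01 and 0 under the Bonferroni correction. In LPS tolerant cells the count of 0 became 2 at an unadjusted p under 0.001, those of H2-Ab1 and H2-Eb1. Of the 10 differences between states, 0 passed as reported, 0 at an adjusted p under 0.1, 1 at an unadjusted p under 0.05 and 7 with t quantiles. The t quantile gives smaller errors by construction; which quantile suits the authors' test was not tested. Read as natural logs, the 11 fold changes would run from 2.22-fold to 5.48-fold, each larger than reported by more than 1 approximate SE. Depth per library is unknown, so what it limits cannot be given.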

Other observations

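Cd74 lies on chromosome 18, outside the H2 complex. Of 75 annotated genes within 1 Mb of it in the RefSeq annotation of GRCm38.p6, used for neighbourhood only, 5 were listed in LPS primed cells, 1 in unstimulated and 0 in LPS tolerant cells. The LPS primed share of 6.67% stands beside 0.75% of all 49997 annotated genes, and whether the region differs from others was not tested. They included the interferon-inducible GTPase genes Iigp1, at 1.86 (adjusted p = 0.535), F830016B08Rik, which rose by 1.43 (adjusted p = 0.00295), and Gm4951, at 1.28 (adjusted p = 0.522), per the authors' deposited table. Iigp1 stood at 1.08 in unstimulated cells (adjusted p = 0.424) per the authors' deposited table. The others were Mir5107, a microRNA locus that rose by 1.08 (adjusted p = 0.000202), and Csnk1a1, a casein kinase gene at 0.79 (adjusted p = 0.865), per the authors' deposited table.

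Around the class II chains on chromosome 17, 5 of 161 annotated genes within 1 Mb were listed in any state, or 3.11%, beside 1.61% of all annotated genes. Besides H2-DMa, H2-DMb1 and H2-K2, these were the heat-shock genes Hspa1a and Hspa1b, at -0.82 and -0.77 in unstimulated cells (adjusted p of 0.489 and 0.396) per the authors' deposited table. Of the 161, 2 were listed in unstimulated and 1 in LPS primed cells, or 1.24% and 0.621%. The shares of all annotated genes in those states were 0.446% and 0.75%. Those in unstimulated cells were Hspa1a and Hspa1b. The LPS primed neighbour was H2-K2, at -1.14 (adjusted p = 0.85) per the authors' deposited table. All were listed as lower and none passed, and whether the region differs from others was not tested.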
